A study of Homo sapiens with 6 samples.

Results

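The genes described here encode the proteins that sense oxygen, carry glucose into the cell and break it down to lactate, together with further targets of the hypoxia-inducible factors. They form a list of 39 genes: 6 of oxygen sensing, 22 of glucose uptake and glycolysis, and 11 other targets of hypoxia-inducible factor (HIF). The list was drawn up by function, with earlier results of these data known. Of its members 35 were among the 18417 genes tested, because a probe set of theirs carried exactly 1 gene symbol. Where a gene had several such probe sets, the brightest on average was used. CA9 and SLC16A3 were not analysed here, and EGLN2 and PGAM1 were measured only by probe sets shared with another symbol.

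The cells were IMR90, primary human fibroblasts from lung that keep a finite lifespan in culture. The 3 control samples were untreated, and the 3 others received 10 ng/mL of recombinant human oncostatin M once; this protein belongs to the same cytokine family as interleukin-6 and is made by activated leukocytes. No source used here states how long the treatment lasted or at which oxygen tension the cells were kept. Each sample was hybridised to 1 Affymetrix array. Nothing in the labels says whether the samples of a group came from separate cultures, so a p-value covers sample-to-sample spread that may be no more than technical. RNA of a whole culture was measured, so fewer cells that express a gene and less RNA per cell cannot be told apart.

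HIF is a pair of proteins: an alpha subunit, HIF1A or EPAS1 (HIF-2 alpha), and the constant partner ARNT. In oxygenated cells the prolyl hydroxylases encoded by EGLN1, EGLN2 and EGLN3 mark the alpha subunit for destruction through the VHL ubiquitin ligase, so HIF activity is set largely at the protein level. When oxygen is short the pair binds the core letters ACGTG or GCGTG near its targets, among them glucose carriers, many glycolytic enzymes, and PDK1, which keeps pyruvate from being oxidised in the mitochondrion.

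The upstream windows of the called members are shown first, because the list is defined by HIF and these hold the letters that HIF binds. These are the 250 bases before the most upstream annotated start of HIF1A, HK2 and CA12, the 3 members past the threshold, from RefSeq on GRCh38.p14, written 5′ to 3′ on the strand of the gene. Capitals mark ACGTG and GCGTG, which read CACGT and CACGC where they lie on the opposite strand.

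HIF1A (chr14:61695263-61695512, plus strand): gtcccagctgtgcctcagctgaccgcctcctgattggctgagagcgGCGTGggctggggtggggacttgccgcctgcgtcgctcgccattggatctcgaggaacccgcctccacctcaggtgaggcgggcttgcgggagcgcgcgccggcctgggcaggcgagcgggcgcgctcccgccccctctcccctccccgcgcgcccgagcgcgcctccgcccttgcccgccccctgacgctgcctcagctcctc

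HK2 (chr2:74833877-74834126, plus strand): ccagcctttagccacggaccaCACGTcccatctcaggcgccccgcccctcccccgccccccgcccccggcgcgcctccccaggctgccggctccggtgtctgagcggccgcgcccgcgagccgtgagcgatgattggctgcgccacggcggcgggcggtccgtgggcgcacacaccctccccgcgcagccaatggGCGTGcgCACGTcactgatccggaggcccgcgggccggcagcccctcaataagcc

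CA12 (chr15:63381847-63382096, minus strand): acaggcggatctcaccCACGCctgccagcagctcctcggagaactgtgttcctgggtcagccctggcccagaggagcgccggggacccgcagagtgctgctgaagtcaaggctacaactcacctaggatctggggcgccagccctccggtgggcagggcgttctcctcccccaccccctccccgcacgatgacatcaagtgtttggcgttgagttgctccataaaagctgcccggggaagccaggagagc

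The window of HIF1A held GCGTG 1 time, 204 bases before the start, and that of CA12 held it 1 time, 234 bases before the start. On either strand, GCGTG lay in 32.2% of all windows. HK2 held ACGTG 2 times, at 229 and 48 bases, and GCGTG 1 time, at 55 bases before its start. GPI, LDHA and PGK1, glycolytic genes whose oncostatin M arrays all lay above the controls, also carried ACGTG before their most upstream start. Of all windows, which count every annotated start of a gene, 18.5% held ACGTG. Of the 14 members with groups apart and a matched window, 4 held it before the most upstream start: GPI, LDHA, PGK1 and HK2. SLC2A1, HK1, TPI1, ENO1 and PFKFB3, also apart upwards, held none there, and neither did PDK1, PFKP and P4HA2, apart downwards. Before a later annotated start ACGTG did lie in TPI1 and PFKFB3, and also in PDK1 and PFKP. Whether these letters go with the direction of change was not tested. For GPI, LDHA and PGK1 in turn, the stretch around the match nearest to the most upstream start is given, with these 5 letters in capitals. The match lay 162, 73 and 183 bases before that start.

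GPI (chr19:34364817-34364847, plus strand): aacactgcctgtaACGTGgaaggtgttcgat

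LDHA (chr11:18394477-18394507, plus strand): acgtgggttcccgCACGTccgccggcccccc

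PGK1 (chrX:78104052-78104082, plus strand): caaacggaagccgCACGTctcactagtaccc

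Windows were matched by symbol for 31 of the 35 tested members. Counting every annotated start of a gene, 18 of the 31 (58.1%) held ACGTG on either strand, against 21.7% of 27305 genes with a window. With GCGTG as well, 25 of 31 (80.6%) held at least 1 match, against 47.4% of genes. The E-box letters CACGTG, which contain ACGTG on both strands and are also bound by other factors, lay in 8 members (25.8%) and in 7.73% of genes. The letters TTCNNNGAA, the shape of a STAT site, lay in 2 members, HK1 and PDK1 (6.45%), against 8.09% of genes. These are matches of letters only, genes with several starts had more windows, and base composition was not matched between members and other genes. The list is defined by HIF, so its shares of HIF letters may follow from that choice. They are no test of the response to oncostatin M.

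After oncostatin M, 3 of the 35 members rose past an adjusted p of 0.05 in a limma fit over all genes, and none fell: HIF1A 1.36-fold, the hexokinase HK2 1.42-fold and the carbonic anhydrase CA12 1.55-fold. Among all 18417 genes 1.72% rose and 1.7% fell by the same rule. At an unadjusted p under 0.05, 12 members were higher and 3 lower, where 918 and 1227 of the 18417 genes were. The 3 oncostatin M arrays all lay above the 3 controls for 13 members, against 7.43% of all genes. They all lay below the controls for 3 members, against 10.6% of all genes. Of the 35 members, 32 lay in both groups above a bound set by silent genes, given below, against 10940 of 18417 genes. The shares of all genes are thus not matched for level. With dim genes left out, 5 members and 765 of 11278 genes were called in either direction. The median change of the 35 members was 0.11 on the log2 scale, with 25 above 0 and 10 below, where the median of all genes was 0.00057. Values below are log2 levels, and each change is the mean of the treated arrays less that of the controls, with its standard error (SE).

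By class, 17 of the 21 tested genes of glucose uptake and glycolysis lay above 0 (median 0.12), and 10 had groups apart upwards, a count that came to 6 when each array was centred on its median. Of 9 other HIF targets, 4 lay above 0 and 5 below (median -0.016), with 2 genes apart upwards and 2 downwards. Of 5 oxygen-sensing genes, 4 lay above 0 (median 0.054) and 1 was apart upwards. The difference between the classes was not tested.

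**Figure D1:**
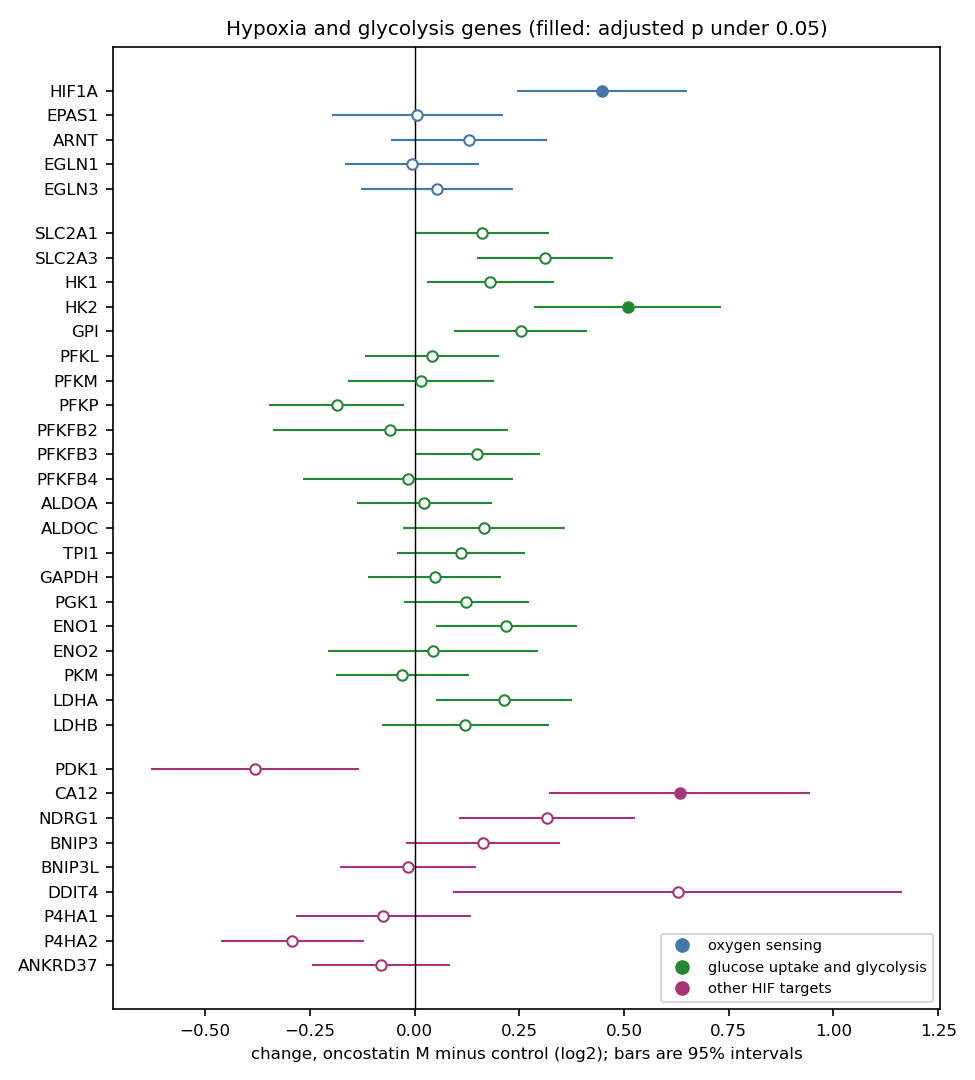
Change of each of the 35 members after oncostatin M (horizontal axis, log2), by class; points are changes, bars are 95% intervals from limma, and filled points passed an adjusted p of 0.05. HIF1A (0.45), HK2 (0.51) and CA12 (0.63) are filled, and PDK1 (-0.38), P4HA2 (-0.29) and PFKP (-0.19) lie farthest to the left.

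The 6 arrays had medians between 6.54 and 6.66 and correlations between 0.989 and 0.997. The array of oncostatin M 1 deviated most from its group, by 0.133 on average over genes against 0.0635 to 0.0881 for the others. With that array left out, HIF1A, HK2 and CA12 were again the members past the threshold. All 12 fibroblast markers lay above the 95th percentile of genes held to be silent (olfactory receptor and keratin-associated protein genes; 6.69 in control and 6.71 after oncostatin M), and their summed level ran from 138.0 to 139.0 in control and from 138.6 to 140.2 after treatment. Fibroblast markers moved both ways: LUM (0.75, adjusted p = 0.0222, limma) and PDGFRA (0.39, 0.0337) rose, and PDGFRB (-0.37, 0.0253) fell. None of 8 epithelial and 2 of 8 endothelial markers lay above the bound in both groups, TEK and CLDN5, and TEK was higher on every treated array without passing (0.47, adjusted p = 0.182). Of 7 leukocyte markers CD68 alone lay above it in both groups, and their summed level ran from 41.1 to 41.3 in control and from 42.4 to 43.7 after oncostatin M. CD14 rose from 6.39 in control to 7.83 after treatment (change 1.44, adjusted p = 0.000917, limma), and no other leukocyte marker passed. PTPRC, which marks leukocytes in general, stood below the bound at 3.83 and 3.86. The part of these markers in the results was not tested. By the same bound EGLN3, PFKFB2 and ANKRD37 could not be told from silent genes in either group.

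Among the oxygen-sensing genes, HIF1A rose. Its arrays read 12.29, 12.06 and 12.22 in control and 12.53, 12.68 and 12.70 after oncostatin M, so the groups did not overlap. The means were 12.19 ± 0.12 and 12.64 ± 0.10 (SD, n = 3 each), and the change was 0.45 (SE 0.09, adjusted p = 0.0323, limma). The call was lost in 5 of 6 fits that left out 1 array, with adjusted p up to 0.129 without control 2, and held without oncostatin M 1 (0.0129). It was also lost when arrays were centred on their medians (adjusted p = 0.0804) and with the replicate number as a block (0.101).

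EPAS1, the alpha subunit best known from endothelium and lung, read 11.46, 11.46 and 11.27 in control and 11.46, 11.48 and 11.28 after oncostatin M. The groups covered nearly the same range. The change was 0.0062, with a 95% interval of -0.20 to 0.21. Within each array the log2 difference HIF1A minus EPAS1 was 0.83, 0.60 and 0.94 in control and 1.07, 1.21 and 1.42 after treatment, higher on every treated array (exact permutation test, two-sided, p = 0.1, the smallest that 3 against 3 arrays allow).

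ARNT, the shared partner, differed by 0.13 (adjusted p = 0.694) with overlapping groups. EGLN1, the main hydroxylase in most tissues, read 9.35, 9.48 and 9.38 in control and 9.41, 9.40 and 9.38 after oncostatin M, again overlapping (change -0.0071, 95% interval -0.17 to 0.15). EGLN3, a hydroxylase that HIF itself induces, read 6.09, 6.03 and 5.93 in control and 6.17, 6.03 and 6.02 after oncostatin M, near the level of silent genes.

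**Figure D2:**
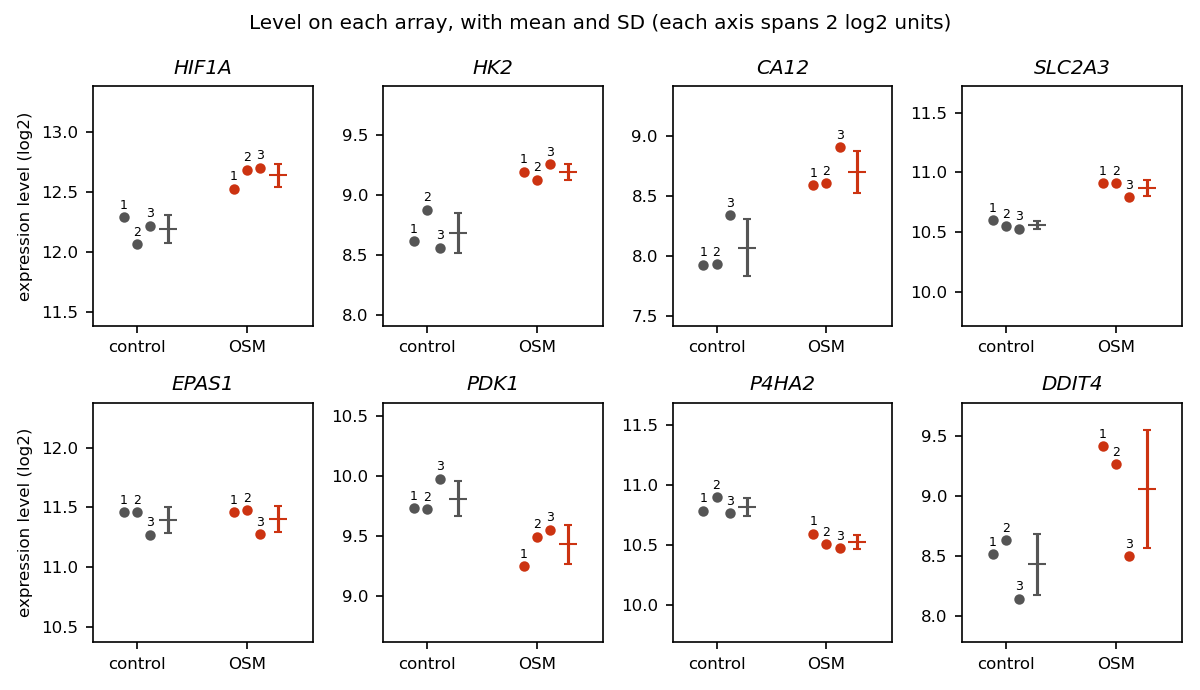
Log2 level of 8 members on each array (vertical axis, spanning 2 log2 units in each panel), control at the left and oncostatin M (OSM) at the right; digits are replicate numbers, and the bar beside them is mean ± SD. HIF1A, HK2, CA12 and SLC2A3 have every oncostatin M array above the controls, PDK1 and P4HA2 have every one below, EPAS1 overlaps, and in DDIT4 the array of oncostatin M 3 lies well below the other two.

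Glucose enters fibroblasts through carriers of the SLC2A family, SLC2A1 (GLUT1) and SLC2A3 (GLUT3) among them. SLC2A3 read 10.60, 10.55 and 10.53 in control and 10.91, 10.91 and 10.79 after oncostatin M, so every treated array was higher. Its change of 0.31 (SE 0.07) did not pass over all genes (adjusted p = 0.0593, limma). It passed when dim genes were left out of the test (0.0289), with a trended, robust variance prior (0.0109) and with array weights (0.0335). It did not pass on centred arrays (adjusted p = 0.117, limma) or with the replicate number as a block (0.119). With 1 array left out it passed in no fit (0.0771 to 0.234). SLC2A1 read 11.751, 11.872 and 11.818 in control and 11.991, 11.938 and 11.998 after oncostatin M, again without overlap, with a change of 0.16 (adjusted p = 0.419). SLC2A14, a further gene of this family, was also higher on every treated array (0.23, adjusted p = 0.211, limma). Whether its probe set and that of SLC2A3 detect separate transcripts was not tested.

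Hexokinases trap glucose in the cell as glucose 6-phosphate, and HK2 is the inducible form where HK1 is the constant one. HK2 rose, with arrays at 8.61, 8.88 and 8.56 in control and 9.19, 9.13 and 9.26 after oncostatin M and no overlap. The means were 8.68 ± 0.17 and 9.19 ± 0.06 (SD, n = 3 each), and the change was 0.51 (SE 0.10, adjusted p = 0.0285, limma). Leaving out control 1 ended the call (adjusted p = 0.159), as did leaving out control 3 (0.119), oncostatin M 2 (0.0624), oncostatin M 3 (0.101) or taking the replicate number as a block (0.0906). HK1 read 9.14, 9.18 and 9.20 in control and 9.35, 9.32 and 9.38 after oncostatin M, a change of 0.18 (adjusted p = 0.293). The log2 difference HK2 minus HK1 was -0.53, -0.30 and -0.64 in control and -0.16, -0.19 and -0.13 after treatment, higher on every treated array (exact permutation p = 0.1, two-sided).

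GPI, which turns glucose 6-phosphate into fructose 6-phosphate, read 10.87, 10.99 and 10.95 in control and 11.17, 11.18 and 11.21 after oncostatin M, without overlap. The change of 0.25 (SE 0.07) did not pass (adjusted p = 0.118, limma), though it did with a trended, robust variance prior (0.0218) and with array weights (0.0151). On centred arrays (0.281), with the replicate number as a block (0.218) and with any 1 array left out (0.113 to 0.392) it did not pass.

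Phosphofructokinase, the committed step of the pathway, is built from the isozymes PFKL, PFKM and PFKP. PFKP read 10.92, 11.01 and 10.95 in control and 10.72, 10.83 and 10.78 after oncostatin M, every treated array being lower (change -0.19, SE 0.07, adjusted p = 0.319). PFKL (0.041) and PFKM (0.015) overlapped between groups. Within arrays PFKP minus PFKL was 1.61, 1.58 and 1.61 in control and 1.30, 1.42 and 1.40 after treatment. PFKP minus PFKM was 1.86, 1.79 and 1.78 in control and 1.61, 1.65 and 1.56 after treatment. Both differences were lower on every treated array (exact permutation p = 0.1 for each, two-sided).

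The PFKFB enzymes make and remove fructose 2,6-bisphosphate, a strong activator of phosphofructokinase. PFKFB3, the form with the most kinase activity, read 9.01, 8.99 and 9.04 in control and 9.16, 9.18 and 9.14 after oncostatin M, a change of 0.15 (SE 0.07, adjusted p = 0.426) between tight groups that did not overlap. PFKFB4 read 7.14, 7.12 and 7.01 in control and 7.23, 7.15 and 6.84 after oncostatin M (change -0.016), where the array of oncostatin M 3 was the lowest of the 6. PFKFB2 differed by -0.058 near the level of silent genes.

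The later enzymes, from aldolase to lactate dehydrogenase, include some of the most abundant proteins of the cell. ENO1, an enolase, read 12.62, 12.79 and 12.75 in control and 12.93, 12.93 and 12.95 after oncostatin M (change 0.22, adjusted p = 0.229). LDHA, which reduces pyruvate to lactate, read 12.65, 12.56 and 12.67 in control and 12.79, 12.87 and 12.86 after oncostatin M (change 0.21, adjusted p = 0.227). Neither gene's groups overlapped, and each passed with a trended, robust variance prior (0.0283 for ENO1 and 0.0251 for LDHA) and with array weights (0.0357 and 0.0427). Neither passed on centred arrays (adjusted p = 0.453 and 0.535, limma) or with the replicate number as a block (0.327 and 0.354). With 1 array left out neither passed in any fit, with adjusted p up to 0.594 and 0.546. TPI1 (0.11, adjusted p = 0.675) and PGK1 (0.12, adjusted p = 0.579) also had every treated array higher.

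GAPDH, often used as a reference transcript, read 13.40, 13.46 and 13.48 in control and 13.47, 13.46 and 13.55 after oncostatin M, a change of 0.048 (95% interval -0.11 to 0.21). PKM, the step that makes pyruvate, differed by -0.029 and ALDOA, an aldolase, by 0.024. ALDOC (0.17), ENO2 (0.044) and LDHB (0.12) overlapped between groups. Several of these enzymes have processed pseudogenes and close isozymes, so their probe sets may also detect related transcripts.

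Over the 21 genes of glucose uptake and glycolysis, the median deviation from each gene's own mean was below 0 on every control array and above 0 on every treated array. It was -0.088, -0.029 and -0.049 on the control arrays and 0.067, 0.072 and 0.058 on the oncostatin M arrays. Over all 18417 genes it was -0.012, 0.024 and -0.0015 in control and 0.0074, -0.015 and -0.0046 after treatment. For the 9 other HIF targets the same medians were -0.0033, -0.046 and 0.0067 in control and 0.019, 0.042 and -0.020 after treatment, and the groups overlapped.

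**Figure D3:**
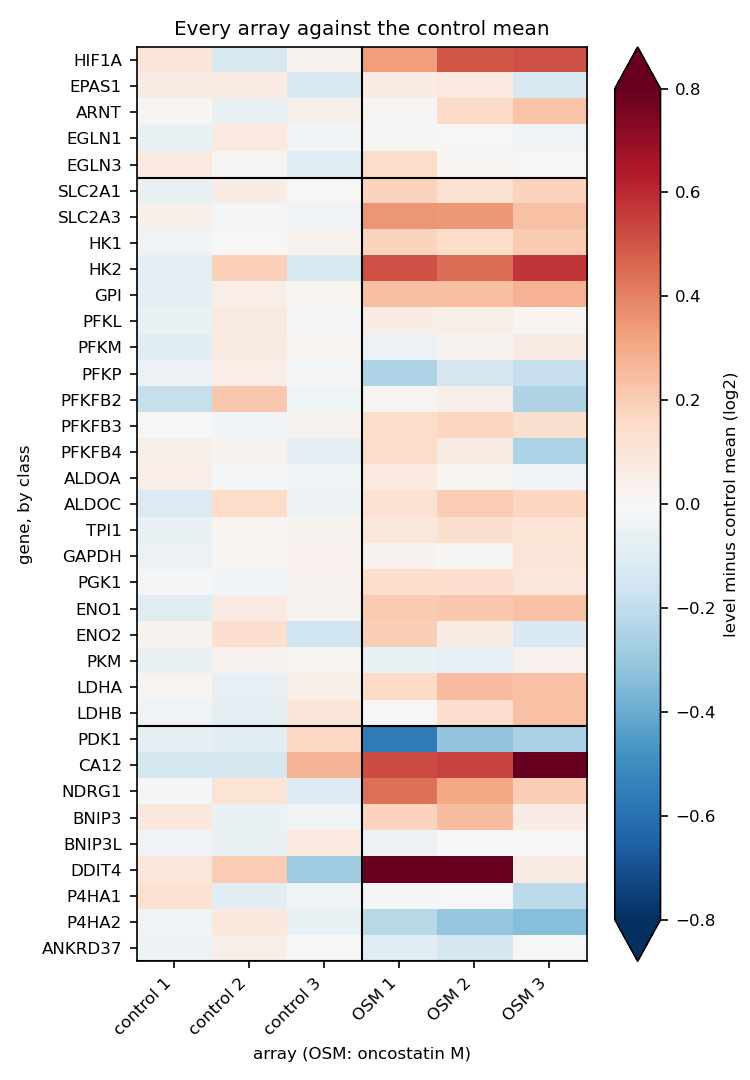
Level of each member on each array minus its control mean (colour, log2; colours saturate at 0.8), genes in rows by class and arrays in columns (OSM, oncostatin M). Most glycolytic rows are pale on the oncostatin M arrays, more often towards red than blue, with HK2 the deepest red and PFKP blue. The rows below are mixed: CA12 and NDRG1 red, DDIT4 red except on oncostatin M 3, PDK1 and P4HA2 blue.

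PDK1, the kinase that shuts off pyruvate dehydrogenase and a classical HIF1 target, was lower on every treated array. It read 9.73, 9.72 and 9.98 in control and 9.24, 9.49 and 9.55 after oncostatin M. The change of -0.38 (SE 0.11) did not pass (adjusted p = 0.136, limma), nor did it in any of the other fits, where adjusted p ran from 0.0641 to 0.422. The log2 difference LDHA minus PDK1 was 2.92, 2.84 and 2.70 in control and 3.54, 3.38 and 3.31 after treatment, a shift of 0.59. LDHA was higher and PDK1 lower on every treated array, so this pair was bound to be apart (exact permutation p = 0.1, two-sided). It adds no support beyond the values of the single genes.

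CA12, a membrane carbonic anhydrase that helps cells handle acid, rose. Its arrays read 7.93, 7.94 and 8.34 in control and 8.59, 8.61 and 8.91 after oncostatin M, and the third array was the highest in each group. The means were 8.07 ± 0.24 and 8.70 ± 0.18 (SD, n = 3 each), and the change was 0.63 (SE 0.14, adjusted p = 0.0460, limma). The call was lost without control 1 (0.221), control 2 (0.194), oncostatin M 2 (0.0822) or oncostatin M 3 (0.128), and on arrays centred on their medians (0.0669).

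NDRG1, a stress-induced gene that responds to hypoxia, read 9.60, 9.72 and 9.51 in control and 10.05, 9.92 and 9.81 after oncostatin M, without overlap (change 0.32, SE 0.09, adjusted p = 0.144). DDIT4, an inhibitor of mTORC1 signalling also known as REDD1, read 8.52, 8.64 and 8.15 in control and 9.42, 9.27 and 8.50 after oncostatin M. Its change was 0.63, but the array of oncostatin M 3 lay below controls 1 and 2 (SE 0.23, adjusted p = 0.305). Without that array the change was 0.91 and passed (adjusted p = 0.0223, limma), but array weights, which gave that array the highest weight of the 6, brought it to 0.29 (adjusted p = 0.519). Without oncostatin M 1 it was 0.45 (adjusted p = 0.406). BNIP3, a mitophagy receptor, differed by 0.16 (adjusted p = 0.527) and its relative BNIP3L by -0.016.

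P4HA1 and P4HA2 encode catalytic subunits of the prolyl 4-hydroxylase that modifies collagen. P4HA2 read 10.79, 10.90 and 10.77 in control and 10.60, 10.51 and 10.48 after oncostatin M, every treated array being lower (change -0.29, SE 0.07, adjusted p = 0.0920). It passed when dim genes were left out (0.0470), with a trended, robust variance prior (0.0229) and with array weights (0.0102). It did not pass on centred arrays (adjusted p = 0.0967, limma) or with the replicate number as a block (0.184). With 1 array left out it passed in no fit (0.0530 to 0.304). P4HA1 overlapped (-0.075, adjusted p = 0.923). ANKRD37, a HIF target, differed by -0.079 near the level of silent genes.

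In all, 12 pairs of related genes were compared within arrays, and in 5 the groups were apart: HIF1A minus EPAS1, HK2 minus HK1 and LDHA minus PDK1 upwards, and PFKP minus PFKL and minus PFKM downwards. No pair can pass 0.05 with 3 arrays a group, and adjusted over the 12 pairs these 5 stood at p = 0.24 (exact permutation test). The other 7 pairs overlapped, among them SLC2A3 minus SLC2A1 (0.15), PFKFB3 minus PFKFB4 (0.17) and LDHA minus LDHB (0.092). The pairs were chosen after the values of single genes had been seen, and the outcome of LDHA minus PDK1 was fixed by those values.

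Of 110 further genes of the same pathways, 8 rose and 3 fell past an adjusted p of 0.05 in limma, against 1.72% and 1.7% of all genes. Their median change was 0.026, with 59 above 0. Of the 110, 87 lay above the silent bound in both groups, so these shares are not matched for level either. Of 36 further HIF targets 5 rose and 2 fell. VEGFA, the growth factor of blood vessels, rose 2.00-fold, with means of 9.27 ± 0.17 and 10.28 ± 0.20 (SD, n = 3 each; adjusted p = 0.00380, limma). ADM, which encodes the vasodilator adrenomedullin, rose by 0.91 (SE 0.07, adjusted p = 0.000561). HMOX1, a haem-degrading oxygenase that also answers to oxidative stress, rose by 0.87, the lipoprotein receptor VLDLR by 0.81 and the cyclin CCNG2 by 0.37. The call of CCNG2 was lost in all 6 fits that left out 1 array (adjusted p up to 0.177), and that of VLDLR in 3 of 6, without control 1 (0.0962), control 3 or oncostatin M 2.

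ANGPTL4, an inhibitor of lipoprotein lipase, fell. It read 7.50, 7.73 and 7.82 in control and 7.17, 7.19 and 7.21 after oncostatin M (change -0.49, SE 0.09, adjusted p = 0.0255, limma). BHLHE41, a transcriptional repressor of the clock, fell by 0.44 (adjusted p = 0.0218). Both calls were lost with the replicate number as a block (0.0527 for ANGPTL4 and 0.0729 for BHLHE41). With 1 array left out, ANGPTL4 lost its call in 4 of 6 fits and BHLHE41 in 5 of 6, with adjusted p up to 0.120 and 0.103, each without control 2. LOX (-0.21) and PLOD2 (0.29), which crosslink and hydroxylate collagen, had groups apart in opposite directions, and neither passed.

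Of 12 regulators of HIF, CITED2 fell and none rose. CITED2 competes with HIF1A for the coactivators p300 and CBP. It read 11.49, 11.53 and 11.58 in control and 11.02, 11.03 and 11.13 after oncostatin M (change -0.47, SE 0.07, adjusted p = 0.00910, limma), with the call lost without control 3 (0.0515). VHL differed by -0.15 (adjusted p = 0.623).

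Among 22 further isozymes and glucose carriers and their regulators, TXNIP and its relative ARRDC4 rose and none fell. Both encode arrestin-like proteins that restrain glucose uptake. ARRDC4 read 8.44, 8.61 and 8.51 in control and 9.52, 9.52 and 9.54 after oncostatin M, a change of 1.01 (SE 0.07, adjusted p = 0.000382, limma) that passed in all 6 fits with 1 array left out. TXNIP read 11.57, 11.69 and 11.43 in control and 12.40, 12.28 and 12.14 after oncostatin M (change 0.71, adjusted p = 0.00614), and missed the threshold without control 1 (0.0505).

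Of 14 genes of pyruvate and lactate handling, SLC16A7 (MCT2), a carrier of lactate and pyruvate, rose by 0.63 (SE 0.10, adjusted p = 0.0127, limma) and none fell. Its call was lost without control 1 (0.0873) or control 2. MPC2, a subunit of the mitochondrial pyruvate carrier, read 10.13, 10.04 and 10.29 in control and 9.41, 9.68 and 9.83 after oncostatin M (change -0.52, adjusted p = 0.0633). PDK4 differed by 0.088 at a level near that of silent genes. None passed in limma among 7 genes of the pentose phosphate pathway (median 0.048), 13 of the citric acid cycle (-0.0075) or 6 of gluconeogenesis (0.057). At an unadjusted p under 0.05 these 3 lists held 2, 2 and 0 genes, and all 18417 genes held 2145.

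**Figure D4:**
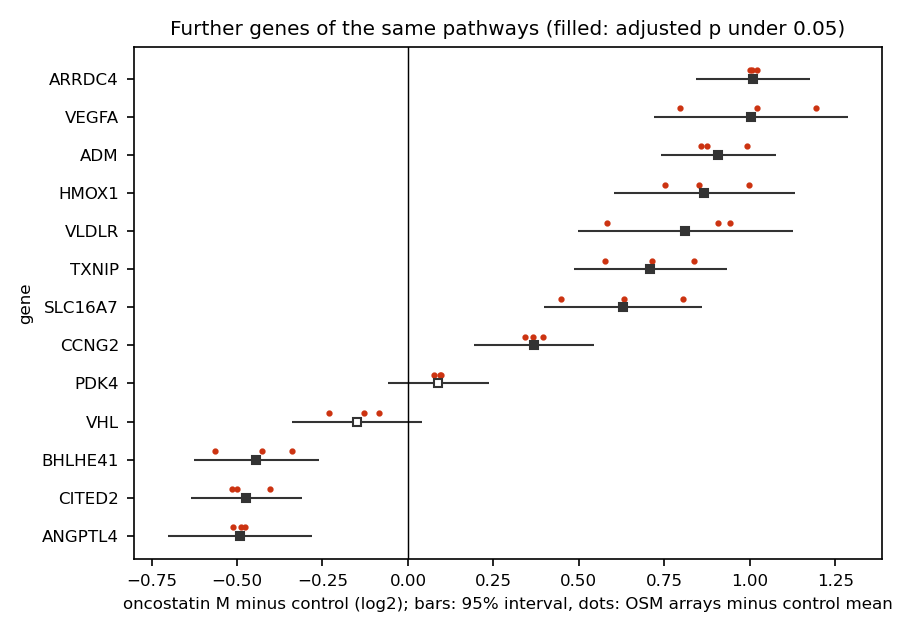
Change of the 11 further pathway genes past the threshold and of VHL and PDK4 after oncostatin M (horizontal axis, log2); squares are changes, bars are 95% intervals from limma, filled squares passed an adjusted p of 0.05, and dots are each oncostatin M array minus the control mean. ARRDC4 (1.01), VEGFA (1.00) and ADM (0.91) lie farthest to the right of those drawn and ANGPTL4 (-0.49), CITED2 (-0.47) and BHLHE41 (-0.44) to the left.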

How the data were processed

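The 6 arrays, 1 per sample, measured RNA of 3 control and 3 oncostatin M samples. The deposited values are log2 levels of 33297 probe sets; per the submitters' processing notes the tools were RMA and Affymetrix Expression Console 1.1, and settings and annotation are not given in the sources used here. RMA usually makes array distributions alike, in which case a change is measured against the bulk of genes. The platform's gene table gave 1 symbol for 19460 probe sets, several for 1754 and none for 12083. Group means were compared with limma 3.58.1 (R 4.3.3), a linear fit with moderated variances, two-sided, called at a Benjamini-Hochberg adjusted p of 0.05 over 18417 genes. The fit was also run on simulated arrays of independent genes without array effects, which is no check of the calls made here. The number of arrays limits the precision.

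Members and lists were chosen with earlier results of these data known. Every tested member was accounted for. By rule, array values were given for members past the threshold and for a set list of members, and further pathway genes were named where they passed, plus VHL, VEGFA, PDK4 and TXNIP; array values of other members, other further genes and the gene pairs were chosen after values were seen. Alternatives changed the normalization, the probe set, the threshold, the variance prior and the arrays used, weighted the arrays, or left out dim genes. The labels do not say whether replicate numbers pair the arrays. Deviations from group means correlated at 0.0635, -0.456 and 0.511 for replicates 1, 2 and 3. So few values cannot settle the pairing, and a link between the arrays of replicate 3 was not tested. Promoter windows came from RefSeq (GRCh38.p14). Figures were drawn with matplotlib 3.10.9.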

Additional observations from a re-analysis of the deposited data

How the results depend on the processing

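Member calls depended on the arrays and settings used. In the reported fit, 1 oxygen-sensing gene (HIF1A), 1 gene of glucose uptake and glycolysis and 1 other HIF target were higher. With 1 array left out the count ran from 0 to 1 in each class. Centred arrays left 0 oxygen-sensing genes and 0 other targets, and a threshold of 0.01 left 0 in each class. With a replicate block oxygen sensing and glycolysis held 0, and the labels do not say whether replicate numbers pair the arrays. Glycolysis held 2 with dim genes left out and 5 with either the trended, robust prior or array weights. In these 3 fits 1 other target, P4HA2, was lower. Calls over all genes also grew in these fits. In either direction they came to 765 of the 11278 genes left by the dim filter, 864 of 18417 with the prior and 1277 with weights. Further pathway genes were higher in 5 cases at 0.01 and in 4 (without control 1) to 8 with 1 array left out. They were lower in 5 with the trended, robust prior or weights, in 1 with the replicate block or at 0.01, and in 0 (without control 3) to 3 with 1 array left out. Groups apart upwards were tried under other settings after seeing the data. They came to 2 oxygen-sensing genes after quantile normalization, where 8.92% of all genes were apart upwards. On centred arrays they came to 6 glycolytic genes, where 6.31% of all genes were apart upwards.

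Over all genes 316 were higher and 314 lower. These counts ran from 156 and 105 without control 1 to 667 and 610 with array weights. Changes near 0, none of them called, turned sign. They were EPAS1 (centred -0.0042, weights -0.076, 1 array left out -0.056 to 0.069), EGLN1 (quantile 0.016, weights 0.00021, left out -0.034 to 0.031), EGLN3 (weights -0.012), PFKFB4 (left out -0.096 to 0.10), PFKM (left out -0.031 to 0.051), PFKFB2 (left out -0.15 to 0.050), ALDOA (weights -0.024, left out -0.0041 to 0.051), ENO2 (weights -0.064, left out -0.037 to 0.13), PKM (weights 0.020) and BNIP3L (weights 0.0041, left out -0.042 to 0.024). The cause was not tested.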

Other observations

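Probe sets with several symbols were kept out of the fit by gene. The probe set shared by EGLN2 and RAB4B-EGLN2 read 7.40, 7.35 and 7.40 in control and 7.49, 7.45 and 7.36 after oncostatin M (change 0.049), with overlapping groups. The 5 probe sets shared by PGAM1, the phosphoglycerate mutase of glycolysis, and PGAM4 changed by 0.038 to 0.051, and none passed the threshold. TPI1 had a further probe set, with a change of 0.14 against 0.11 on the one used.

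Around the pathway, PGD (0.34, adjusted p = 0.115, limma) and TALDO1 (0.22, adjusted p = 0.166), enzymes of the pentose phosphate pathway, were higher on every oncostatin M array without passing the threshold. OGDH, of the citric acid cycle, was lower on every one (-0.29, adjusted p = 0.156, limma). These genes were chosen after their values were seen.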
